A study of Mus musculus with 8 samples.

Results

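The mitochondrial ribosomal protein genes were taken as the protein-coding genes of the deposited table whose symbols are MRPL or MRPS with a number and, in some cases, a letter. The rule found 78 genes among the 58304 kept from the table, and all 78 passed the filter on low values. Grouped by the place of the protein in the ribosome, 51 belong to the large subunit and 26 to the small subunit. MRPS18A and MRPS30 are counted with the large subunit, where their proteins sit despite their names. The remaining gene, MRPS36, is named as a small-subunit gene, but its protein is now known as a component of the α-ketoglutarate dehydrogenase complex.

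Mitochondria carry their own ribosome, built from rRNAs transcribed from mitochondrial DNA and from proteins encoded in the nucleus. It translates only the few proteins encoded by mitochondrial DNA, all of them core subunits of the oxidative phosphorylation complexes. Some of its proteins are homologs of bacterial ribosomal proteins, and others occur only in mitochondria.

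The comparison set 4 libraries labelled rFGF4 (recombinant fibroblast growth factor 4) against 4 labelled PBS, the buffer control. The labels give C57BL/6 mice of 6 to 8 weeks as the source for both groups, with skin taken within 2 mm of a wound, 6 days on, and they name no allele and no other agent. The table does not match that description, since all of its 58825 gene identifiers are human ones from Ensembl and 0 are from mouse. Its columns were matched to the samples by name alone, so the groups below are the libraries as labelled, nothing is said about mouse wounds, and the cells behind the table are not named in the sources. The labels do not say that replicates came from separate animals or cultures, so p-values measure only the spread between these samples, which may be technical.

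The libraries held 62044121 to 73680756 counts each, and a member had 186 to 17792 counts in a library. All 7 basal keratinocyte markers looked at had a mean of at least 1 FPKM (fragment counts scaled by gene length and by library size), with a sum of 2000 to 2130 FPKM in rFGF4 libraries and 2160 to 2450 FPKM in PBS libraries. Of 5 markers of differentiated keratinocytes, 3 (KRT10, IVL and FLG) reached that level. Their set summed to 22.2 to 25.6 FPKM in rFGF4 libraries and 24.7 to 27.8 FPKM in PBS libraries. For fibroblasts 0 of 6 markers reached that level, with sums of 0.411 to 0.511 FPKM in rFGF4 libraries and 0.776 to 0.864 FPKM in PBS libraries. None of the 4 markers each of T cells, neutrophils, melanocytes, skeletal muscle and erythrocytes reached it either, while 1 of 4 did for endothelium (CDH5) and 1 of 4 for macrophages (CD68). In bulk samples of this kind, fewer cells of a type and less RNA per cell cannot be told apart. DUSP6, the phosphatase that feeds back on ERK signalling downstream of FGF receptors, averaged 37.1 ± 5.67 FPKM in rFGF4 libraries and 7.62 ± 0.970 FPKM in PBS libraries (SD, n = 4 each). It rose by 2.31 on the log2 scale (SE 0.12, adjusted p = 0.000115, edgeR's quasi-likelihood test).

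The members, which were short genes as set out below, stood above the typical gene in FPKM, which divides by length. Their mean FPKM over the 8 libraries had a median of 17.0, against 5.71 for the 11536 genes tested. The range ran from 2.78 FPKM for MRPL42, a mitochondria-specific protein of the large subunit, to 95.1 FPKM for MRPL41, another such protein. MRPL12, which forms the stalk that recruits translation factors, followed at 94.0 FPKM, MRPL15 at 92.3 FPKM, MRPL51 at 87.2 FPKM and MRPS18B at 65.6 FPKM. At the low end stood MRPL46 at 4.59 FPKM, MRPS33 at 4.66 FPKM, MRPL53 at 4.69 FPKM and MRPS6, the homolog of bacterial S6, at 5.48 FPKM. The length implied by count and FPKM was 19551 bases for MRPL42 and 694 bases for MRPL41. In CPM (counts scaled by library size with TMM factors, not by length) these genes lay nearer. MRPL42 averaged 61.5 CPM in rFGF4 libraries and 48.7 CPM in PBS libraries, and MRPL41 70.1 and 63.7 CPM. MRPL53, at 822 bases, was low in CPM too, at 4.15 and 3.68 CPM, though it overlaps CCDC142 on the same strand. The median level was 21.3 FPKM for large-subunit genes and 14.4 FPKM for small-subunit genes. The 78 genes lie on 21 chromosomes of the human set, with no more than 8 on any of them.

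Between the rFGF4 and PBS libraries the members changed little. Past an adjusted p of 0.05 (edgeR's quasi-likelihood test, Benjamini-Hochberg over all genes tested), 4 members rose, which is 5.13% of them, against 5.49% of all tested genes. No member fell past that threshold, against 4.54% of all tested genes. The other 74 members did not pass. At an unadjusted p under 0.05, 15 members were higher, a larger share than the 13.5% of all tested genes. At that cut 0 members were lower, against 11.6% of all tested genes. The share of members called higher thus lay near the background at the adjusted threshold only, and above it at the unadjusted cut.

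**Figure D1:**
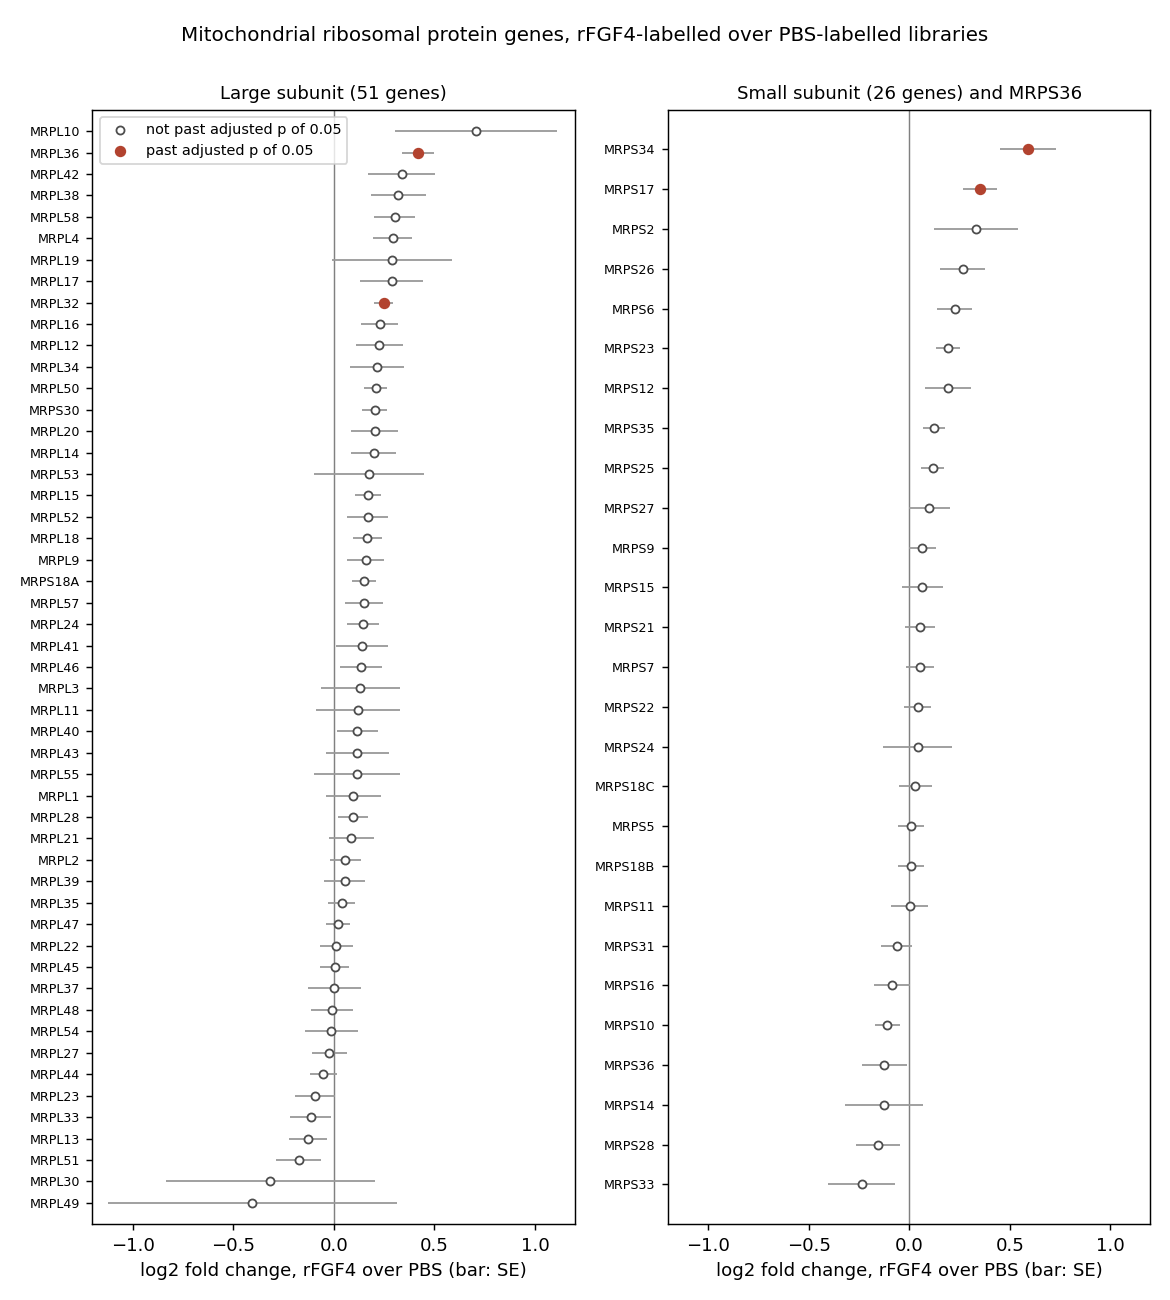
Log2 fold change (rFGF4 over PBS, horizontal axis) of each of the 78 members, ordered by value within large-subunit genes (left) and small-subunit genes with MRPS36 (right), with the SE as a bar. Filled points are the 4 members past an adjusted p of 0.05, and 61 of the 78 points lie above 0.

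MRPL32 and MRPL36, both homologs of bacterial large-subunit proteins, were the members whose calls held best. MRPL32, whose precursor is cut by the m-AAA protease of the inner membrane before it joins the ribosome (shown in yeast and mouse), lies on chromosome 7 from 42932376 to 42948958 on the plus strand, in the table's own coordinates, for which no build is named in the sources. It had 22.2, 22.5, 22.0 and 22.2 FPKM in rFGF4 libraries 1 to 4, against 19.5, 18.6, 19.7 and 18.5 FPKM in PBS libraries 1 to 4. Every rFGF4 library lay above every PBS library. In CPM the means were 90.9 ± 2.19 in rFGF4 libraries and 76.5 ± 1.38 in PBS libraries (SD, n = 4 each). The log2 fold change was 0.25 (SE 0.05, adjusted p = 0.0131, edgeR), a 1.19-fold difference.

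MRPL36, the homolog of bacterial L36 (chromosome 5, 1798385 to 1801366, minus strand), had 35.7, 35.1, 34.3 and 40.7 FPKM in rFGF4 libraries, against 26.5, 27.7, 28.2 and 28.7 FPKM in PBS libraries. The groups did not overlap, and rFGF4 library 4 was the highest. Its means were 36.4 ± 2.91 FPKM in rFGF4 libraries and 27.8 ± 0.945 FPKM in PBS libraries (SD, n = 4 each). The log2 fold change was 0.42 (SE 0.08, adjusted p = 0.0145, edgeR). Without PBS library 2 neither gene passed, with an edgeR adjusted p of 0.0526 for MRPL36 and 0.0600 for MRPL32.

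In the small subunit the members that rose were MRPS34 and MRPS17. MRPS34, a mitochondria-specific protein needed for a stable small subunit, lies on chromosome 16 from 1771890 to 1773155 on the minus strand. It had 90.1, 88.0, 53.7 and 75.2 FPKM in rFGF4 libraries, against 52.1, 50.4, 51.0 and 53.4 FPKM in PBS libraries. Library 3 of the rFGF4 group sat at the level of the PBS group, and the other 3 stood well above it. The log2 fold change was 0.59 (SE 0.14, adjusted p = 0.0339, edgeR). Left out in turn, any library other than rFGF4 library 3 ended the call, with an edgeR adjusted p of 0.0880, 0.0707 and 0.0643 without rFGF4 libraries 1, 2 and 4, and of 0.0831, 0.0990, 0.0851 and 0.0684 without PBS libraries 1 to 4.

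MRPS17, the homolog of the bacterial rRNA-binding protein S17 (chromosome 7, 55951877 to 55956500, plus strand), had 15.8, 17.1, 16.1 and 18.4 FPKM in rFGF4 libraries, against 13.2, 12.7, 13.5 and 14.5 FPKM in PBS libraries. The groups did not overlap. The log2 fold change was 0.35 (SE 0.08, adjusted p = 0.0339, edgeR). The gene lies inside NIPSNAP2 on the same strand, so its counts are uncertain. NIPSNAP2 had 6.82, 4.35, 7.25 and 6.42 FPKM in rFGF4 libraries, against 8.33, 8.46, 8.43 and 4.49 FPKM in PBS libraries, and did not pass (log2 fold change -0.23, adjusted p = 0.612, edgeR). The call for MRPS17 was lost without rFGF4 library 1, 2 or 3, with an adjusted p of 0.0509, 0.0559 and 0.0728, and without PBS library 1, 2 or 3, with 0.0911, 0.106 and 0.0846.

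**Figure D2:**
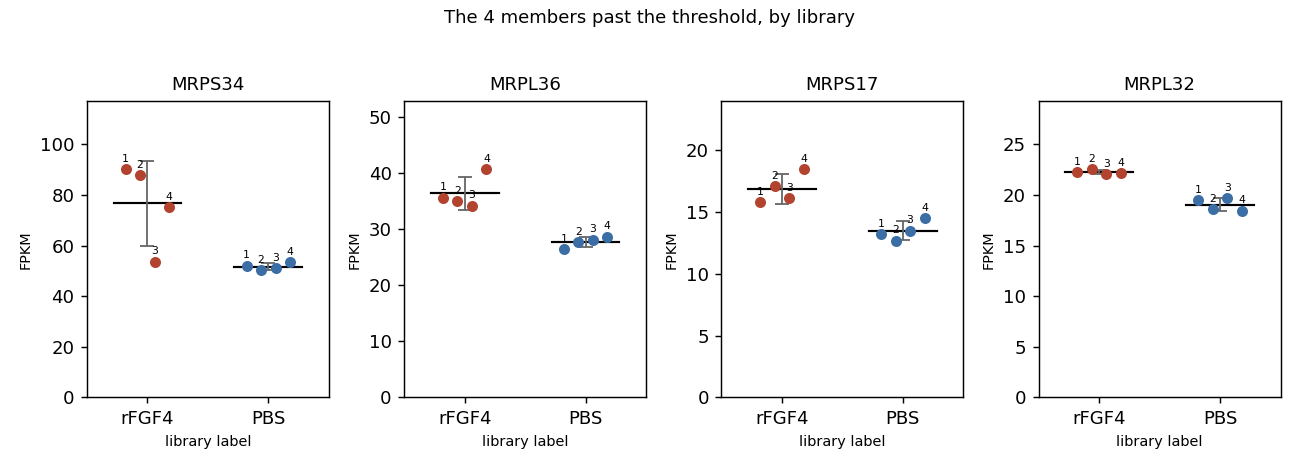
FPKM (vertical axis, from 0) of MRPS34, MRPL36, MRPS17 and MRPL32 in the rFGF4 and PBS libraries, with points numbered by replicate, the mean as a line and the SD as a bar (n = 4 each). In MRPS34 the rFGF4 point numbered 3, at 53.7 FPKM, lies beside the PBS points, and in the other genes each rFGF4 point clears the PBS points.

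The threshold fell between MRPS34, at an adjusted p of 0.0339, and MRPL50, at 0.0515 (edgeR). MRPL50, a mitochondria-specific protein of the large subunit, had 22.4, 22.4, 23.8 and 22.9 FPKM in rFGF4 libraries, against 19.6, 20.3, 20.7 and 20.1 FPKM in PBS libraries, with a log2 fold change of 0.21 (SE 0.06). It passed without rFGF4 library 2 (adjusted p = 0.0437, edgeR). MRPS30, a large-subunit protein in spite of its name, had 11.9, 12.3, 12.7 and 12.9 FPKM in rFGF4 libraries, against 10.5, 11.1, 11.3 and 11.2 FPKM in PBS libraries, with a log2 fold change of 0.20 (SE 0.06, adjusted p = 0.0767, edgeR). MRPL58, a peptidyl-tRNA hydrolase built into the large subunit, had 37.6, 36.5, 38.5 and 43.9 FPKM in rFGF4 libraries, against 31.3, 34.3, 28.9 and 34.6 FPKM in PBS libraries, with a log2 fold change of 0.30 (SE 0.10, adjusted p = 0.101, edgeR). In these 3 genes, too, the groups did not overlap.

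Counting members without the test, every rFGF4 library exceeded every PBS library in CPM for 10 of 78 members, against 1160 of 11536 tested genes (10.1%). These were the 4 called genes, MRPL50, MRPS30 and MRPL58, and the small-subunit genes MRPS23, MRPS25 and MRPS6. MRPS23, named after its values were seen, had a log2 fold change of 0.19 (SE 0.06, adjusted p = 0.0773, edgeR). The opposite order, every rFGF4 library below every PBS library, held for 0 members, against 9.26% of all tested genes.

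The log2 fold changes of the members lay mostly above 0, by small amounts. They were above 0 for 61 of 78 members (78.2%), against 50.3% of all tested genes. Their median was 0.12, against 0.00 for all tested genes, with quartiles of 0.01 and 0.20 and a full range of -0.40 to 0.71. The median SE of a single member was 0.10, so a typical difference was about as large as its own error. In the large subunit 41 of 51 members lay above 0 with a median of 0.13, and in the small subunit 20 of 26 with a median of 0.05.

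That lean was smaller when rFGF4 library 4, where the members summed highest, was left out. Leaving out such a library lowers the rFGF4 side in any case. The members summed to 5210, 4951, 5248 and 6010 CPM in rFGF4 libraries 1 to 4, against 4766, 5016, 4828 and 5249 CPM in PBS libraries 1 to 4. Library 4 was the highest within each group. The sums averaged 5355 ± 456 CPM in rFGF4 libraries and 4965 ± 217 CPM in PBS libraries (SD, n = 4 each), a ratio of 1.08, and the groups overlapped. Without rFGF4 library 4 the ratio was 1.03, and without both libraries numbered 4 it was 1.05.

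Gene by gene, rFGF4 library 4 held the highest CPM of all 8 libraries for 51 of 78 members (65.4%), against 23.1% of all tested genes. Within the rFGF4 group it was highest for 64 members (82.1%, against 35.5% of all tested genes), and within the PBS group library 4 was highest for 48 (61.5%, against 31.0%). When rFGF4 library 4 was left out, the median log2 fold change of the members was 0.02, against -0.0041 for all tested genes, and 44 of 78 members lay above 0. At an unadjusted p under 0.05, 9 members were higher and 4 lower. The share of all tested genes at that cut was not taken for this fit, so these counts have no background beside them. MRPL32, MRPL36 and MRPS17 still passed the adjusted threshold, beside 5.37% of all tested genes called higher, and MRPS34 did not. With both libraries numbered 4 left out, the median was 0.04, 50 of 78 lay above 0, and the called members were the same 3. In that fit 4.43% of all tested genes were called higher. Without PBS library 4 alone, the median was 0.11 and 64 of 78 lay above 0. The same 3 members passed, beside 3.84% of all tested genes called higher.

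**Figure D3:**
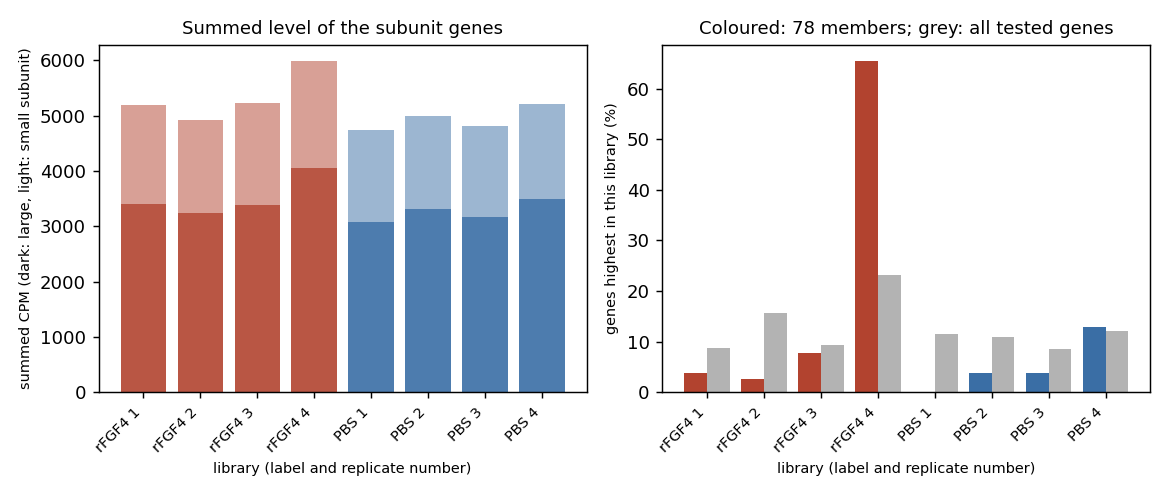
Left, CPM summed over the members in each library (vertical axis, from 0), split into large-subunit genes with MRPS36 left out (dark) and small-subunit genes (light). Right, the percentage of the 78 members (coloured) and of all tested genes (grey) that were highest in each library, where rFGF4 library 4 held 65.4% of the members and 23.1% of all tested genes.

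Gene length moved with the same library. The members were short genes, with a median length implied by count and FPKM of 2982 bases, against 5422 bases for all tested genes. Deviations were taken from the mean of the 4 libraries of the same group, so they do not compare the groups. Among all tested genes with an implied length under 2000 bases, the median deviation was 0.13 (log2) in rFGF4 library 4. In PBS library 4 it was 0.07. Among those over 5000 bases it was -0.07 and -0.03. By length, the median log2 fold change was 0.15 for the 19 members under 2000 bases and 0.09 for the 1673 tested genes of that class. For 2000 to 5000 bases it was 0.12 for 42 members and 0.00 for 3619 genes, and above 5000 bases it was 0.04 for 17 members and -0.01 for 6244 genes. With each library's trend over length removed, the members' median was 0.09 and 57 of 78 lay above 0. In that fit 5 members passed, namely MRPL32, MRPL36, MRPS17, MRPL50 and MRPL58, against 6.47% of all tested genes called higher, and MRPS34 did not (adjusted p = 0.0541, edgeR). The part of length or of library 4 in the members' values beyond these figures was not tested.

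Among the genes of the large subunit's stalk, rFGF4 library 4 was the highest for MRPL12 and MRPL11, and the lowest of its group for MRPL10 (10.8 FPKM). MRPL12 had 91.2, 94.3, 93.6 and 122 FPKM in rFGF4 libraries, against 83.7, 83.9, 88.2 and 94.4 FPKM in PBS libraries (log2 fold change 0.23, SE 0.12, adjusted p = 0.277, edgeR). MRPL11, which sits at the base of the stalk, had 17.3, 19.2, 18.7 and 32.8 FPKM in rFGF4 libraries, against 19.2, 22.1, 20.3 and 21.2 FPKM in PBS libraries. Its log2 fold change was 0.12 (SE 0.21, adjusted p = 0.776, edgeR) with all libraries and -0.17 without rFGF4 library 4. MRPS12, a protein of the decoding site, did not pass either (log2 fold change 0.19, adjusted p = 0.342, edgeR).

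The 3 MRPS18 paralogs, which descend from 1 bacterial protein, could be set side by side. MRPS18A, in the large subunit, had 40.6, 39.0, 41.7 and 41.3 FPKM in rFGF4 libraries, against 37.2, 36.7, 36.5 and 38.5 FPKM in PBS libraries (log2 fold change 0.15, SE 0.06, adjusted p = 0.159, edgeR). MRPS18B, in the small subunit, had a log2 fold change of 0.01 (SE 0.07, adjusted p = 0.956, edgeR). For MRPS18C it was 0.03 (SE 0.08, adjusted p = 0.850, edgeR), at a level of 7.39 FPKM over all libraries. None of the 3 passed the threshold, and the difference between them was not tested. MRPS36 had 12.1, 12.9, 12.3 and 14.0 FPKM in rFGF4 libraries, against 13.4, 13.0, 13.5 and 16.9 FPKM in PBS libraries (log2 fold change -0.12, SE 0.11, adjusted p = 0.564, edgeR).

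The members with the lowest log2 fold changes did not pass the test. MRPS33, a mitochondria-specific small-subunit protein, had 4.43, 3.98, 4.06 and 4.50 FPKM in rFGF4 libraries, against 4.10, 4.85, 4.48 and 6.87 FPKM in PBS libraries (log2 fold change -0.23, SE 0.17, adjusted p = 0.435, edgeR), and PBS library 4 lay above the rest. For MRPL51 the values were 79.1, 77.8, 75.5 and 92.0 FPKM in rFGF4 libraries, against 88.1, 87.6, 87.6 and 110 FPKM in PBS libraries (log2 fold change -0.18, SE 0.11, adjusted p = 0.381, edgeR). MRPL51 overlaps NCAPD2 on the opposite strand, which averaged 52.0 FPKM and passed as lower (log2 fold change -0.25, adjusted p = 0.0390, edgeR). Whether the 2 rows share counts was not tested. MRPS28 stood at a log2 fold change of -0.15 and MRPL13, the homolog of bacterial L13, at -0.13.

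The extremes of the range, MRPL49, MRPL30 and MRPL10, were genes whose libraries differed widely inside a group. By a measure chosen after the values were seen, the highest CPM was at least 2-fold the lowest within a group for 5 of 78 members (6.41%), against 13.4% of all tested genes. These were MRPL49, MRPL30, MRPL19, MRPL10 and MRPL53, all of the large subunit.

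MRPL49, a mitochondria-specific protein, had 11.1, 16.4, 7.99 and 39.5 FPKM in rFGF4 libraries, against 41.9, 7.50, 8.53 and 44.0 FPKM in PBS libraries. Its values lay near 40 FPKM in rFGF4 library 4 and in PBS libraries 1 and 4, and at or under 16.4 FPKM in the other 5. The log2 fold change was -0.40 (SE 0.72, adjusted p = 0.782, edgeR). It overlaps SYVN1 on the opposite strand, which stayed between 5.88 and 10.2 FPKM in all libraries.

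MRPL30, the homolog of bacterial L30, had 17.5, 6.16, 4.86 and 17.6 FPKM in rFGF4 libraries, against 5.49, 17.4, 18.1 and 17.7 FPKM in PBS libraries. Thus 5 libraries lay near 17 to 18 FPKM and 3 near 5 to 6 FPKM, in both groups (log2 fold change -0.32, SE 0.52, adjusted p = 0.763, edgeR). A row named AC079447 overlaps it on the same strand and was above 0.5 FPKM in the same 3 libraries, with 0.857 and 2.39 FPKM in rFGF4 libraries 2 and 3 and 0.509 FPKM in PBS library 1. Its counts there were 147, 392 and 89, and whether counts passed from one row to the other was not tested.

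MRPL10, the anchor of the stalk, had the highest log2 fold change of all members, 0.71 (SE 0.40, adjusted p = 0.323, edgeR). It had 14.1, 20.3, 24.0 and 10.8 FPKM in rFGF4 libraries, against 6.87, 20.7, 7.73 and 7.55 FPKM in PBS libraries. PBS library 2 lay among the rFGF4 libraries, and without it the log2 fold change was 1.25 and the gene passed (adjusted p = 0.0365, edgeR). MRPL42 behaved likewise, with 3.24, 3.42, 2.49 and 3.20 FPKM in rFGF4 libraries, against 2.24, 3.36, 2.16 and 2.16 FPKM in PBS libraries (log2 fold change 0.34, SE 0.17, adjusted p = 0.250, edgeR). It passed without PBS library 2, at an adjusted p of 0.0367.

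MRPL19, homolog of bacterial L19, had 7.32, 7.75, 6.38 and 5.78 FPKM in rFGF4 libraries, against 2.46, 6.27, 7.99 and 5.89 FPKM in PBS libraries, where library 1 was low. MRPL53 ranged from 3.08 to 7.53 FPKM in rFGF4 libraries, against 3.95 to 5.04 FPKM in PBS libraries. It overlaps CCDC142 on the same strand, so its counts are uncertain. In rFGF4 library 4, MRPL53 had its highest count, 449, and CCDC142 its lowest, 927. Whether counts passed from one row to the other was not tested. MRPS2, the homolog of bacterial S2, also varied, with 71.9, 46.0, 81.4 and 53.1 FPKM in rFGF4 libraries, against 58.9, 60.8, 40.9 and 43.6 FPKM in PBS libraries (log2 fold change 0.33, SE 0.21, adjusted p = 0.379, edgeR). In MRPL19, MRPL53 and MRPS2 the groups overlapped.

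**Figure D4:**
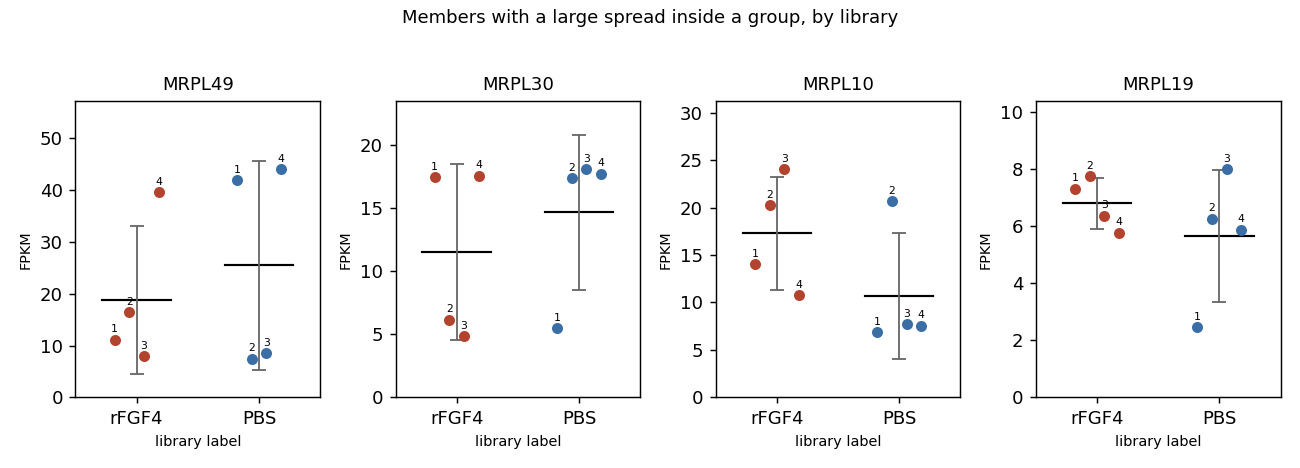
FPKM (vertical axis, from 0) of MRPL49, MRPL30, MRPL10 and MRPL19 in the rFGF4 and PBS libraries, with points numbered by replicate, the mean as a line and the SD as a bar (n = 4 each). Points of the same group lie at separate levels, as in MRPL30, where rFGF4 libraries 2 and 3 and PBS library 1 sit at 4.86 to 6.16 FPKM.

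Of the members, 44 overlap another row of the table, and 24 overlap a row with a mean of at least 1 FPKM, so their counts may be shared. Pseudogenes were a minor presence. The table holds 75 pseudogene rows for 34 members, of which 3 had a mean of at least 1 FPKM. MRPL3P1 had 1.61 FPKM against 54.4 FPKM for MRPL3, MRPL45P2 had 1.84 FPKM against 43.3 FPKM for MRPL45, and MRPS31P4 had 1.65 FPKM against 17.0 FPKM for MRPS31.

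Among genes that work with the ribosome, single members rose past the edgeR threshold and none fell past it. Among 27 genes of mitoribosome assembly and rRNA modification, 4 rose (14.8%, against 5.49% of all tested genes) and 0 fell (against 4.54%), with a median log2 fold change of 0.10. Of these 27 genes, 16 had their highest CPM of the 8 libraries in rFGF4 library 4, against 23.1% of all tested genes. TFB1M, which dimethylates the small-subunit rRNA, had 5.97, 6.36, 6.38 and 6.58 FPKM in rFGF4 libraries, against 4.29, 3.78, 4.23 and 4.66 FPKM in PBS libraries (log2 fold change 0.60, SE 0.09, adjusted p = 0.00463, edgeR). MTERF4, the partner of the rRNA methyltransferase NSUN4, rose by 0.53 on the log2 scale (SE 0.11, adjusted p = 0.0172, edgeR). RBFA, a small-subunit maturation factor, rose by 0.34 (SE 0.08, adjusted p = 0.0260, edgeR), and MRM1, which methylates ribose in the large-subunit rRNA, rose by 0.38 (SE 0.09, adjusted p = 0.0308, edgeR).

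Leaving out 1 library ended the calls for MTERF4 (PBS library 2, 3 or 4), for RBFA (rFGF4 library 1 or 3, or any PBS library) and for MRM1 (the same 6 libraries). The highest edgeR adjusted p among these was 0.0571 for MTERF4, 0.0794 for RBFA and 0.0861 for MRM1. METTL15, another small-subunit rRNA methyltransferase, named after its values were seen, had 0.994, 1.43, 1.15 and 0.681 FPKM in rFGF4 libraries, against 2.72, 2.50, 2.83 and 1.17 FPKM in PBS libraries. It missed the threshold (log2 fold change -1.09, SE 0.30, adjusted p = 0.0534, edgeR), and without PBS library 4 it passed at -1.30 (adjusted p = 0.0145, edgeR). It passed as lower in 5 of the 18 alternative fits, among them DESeq2 (adjusted p = 0.00202) and edgeR with the length trend removed (adjusted p = 0.0364).

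In translation, 1 of 20 mitochondrial aminoacyl-tRNA synthetases rose and 0 fell, with a median log2 fold change of 0.00. That share, 5%, lay near the 5.49% of all tested genes called higher. That gene was MARS2, which charges the mitochondrial methionine tRNA. It had 6.61, 6.06, 6.56 and 6.09 FPKM in rFGF4 libraries, against 3.62, 4.03, 4.11 and 3.42 FPKM in PBS libraries (log2 fold change 0.76, SE 0.09, adjusted p = 0.00153, edgeR). Of 17 tested translation and membrane insertion factors, LETM1, an inner membrane protein whose yeast relative binds mitochondrial ribosomes, rose by 0.31 (SE 0.05, adjusted p = 0.00859, edgeR), 0 fell, and the median was 0.07. This 1 gene is 5.88% of its list, also near the share of all tested genes.

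Among 8 nuclear regulators tested, PPRC1, a coactivator of the PGC-1 family, was the 1 gene that rose (12.5% of the list, against 5.49% of all tested genes) and 0 fell (against 4.54%), with a median of 0.20. PPRC1 had 17.3, 15.7, 15.9 and 13.9 FPKM in rFGF4 libraries, against 10.4, 9.21, 11.9 and 9.65 FPKM in PBS libraries (log2 fold change 0.63, SE 0.09, adjusted p = 0.00339, edgeR). Among 11 genes of mitochondrial transcription and DNA maintenance, TFAM, which packs mitochondrial DNA and starts its transcription, rose by 0.25 (SE 0.06, adjusted p = 0.0314, edgeR), 0 fell, and the median was 0.07. This 1 gene is 9.09% of its list, against the same 5.49%. The call for TFAM was lost without rFGF4 library 1, 2 or 3 or any PBS library, at an adjusted p of up to 0.104. TFB1M, MARS2, LETM1 and PPRC1 passed in every alternative fit run.

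The other partners of these ribosomes gave no call. Of 5 mitoribosome proteins with other kinds of symbol, 0 passed (median log2 fold change 0.09), and AURKAIP1, a small-subunit protein and the nearest, stood at 0.20 (SE 0.10, adjusted p = 0.251, edgeR). Of the 13 protein genes in mitochondrial DNA, the templates of this ribosome, 0 passed. Their median log2 fold change was 0.12 with 12 of 13 above 0, against 50.3% of all tested genes, and rFGF4 library 4 held the highest CPM of the 8 libraries for 12 of the 13. MT-ND2, with the smallest p, stood at 0.22 (SE 0.14, adjusted p = 0.408, edgeR), and at 0.07 without rFGF4 library 4.

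**Figure D5:**
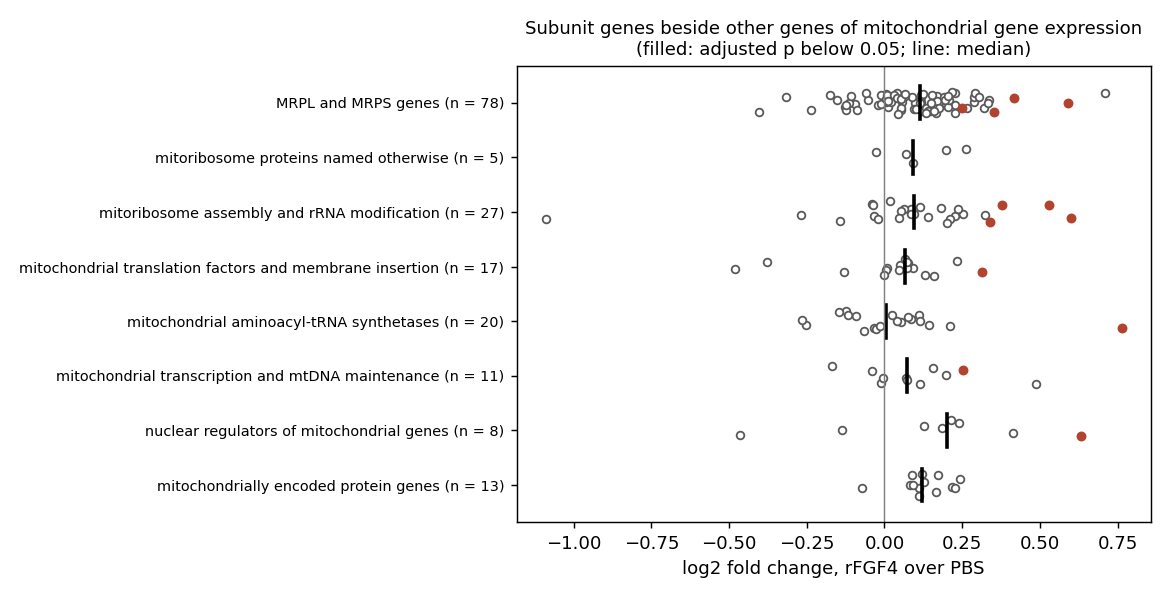
Log2 fold change (rFGF4 over PBS, horizontal axis) of each tested gene in the subunit list and in 7 lists of related genes, with the median of each list as a line. Filled points passed an adjusted p of 0.05: 4 among the subunit genes, 4 among assembly and rRNA modification genes, and 1 each among translation factors, aminoacyl-tRNA synthetases, transcription genes and regulators.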

How the data were processed

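RNA-seq values for 8 libraries were used, 4 labelled rFGF4 and 4 labelled PBS. The authors deposited FPKM and counts per gene, per the file headers, writing 0.0001 for an FPKM of 0. The submitters' processing notes name HISAT2 2.0 and StringTie 1.3.0, without the step. No source used here gives the build, the annotation or the use of strand. The deposited counts are whole numbers. For a given member the ratio of count to FPKM, divided by the library total, was nearly constant over libraries (SD at most 0.00404, log2). Both therefore carry 1 measurement, and the counts may be rounded estimates. Shared counts of overlapping genes cannot be separated.

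The deposited counts were fitted with edgeR 4.0.16 (R 4.3.3; TMM scaling, quasi-likelihood test, two-sided, Benjamini-Hochberg, threshold 0.05) over the 11536 of 58304 genes with a mean of at least 1 FPKM. The 521 Y-linked, XIST and TSIX genes were left out. CPM are TMM-scaled over tested genes. SEs are those implied by the test statistic. Alternatives were DESeq2 1.42.0, limma 3.58.1 on log2(FPKM + 1) and log2(FPKM + 0.1), other scaling and filters, the replicate block, each library left out and, added after seeing the data, both libraries numbered 4 left out and a loess correction for gene length. The scripts were tested on simulated data.

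The members and lists were chosen with earlier results of these data known. Genes named were the members past the threshold, the 6 at each end of log2 fold change, the 5 highest and 5 lowest in FPKM, 9 fixed genes (MRPL11, MRPL12, MRPL58, MRPS12, MRPS18A, MRPS18B, MRPS18C, MRPS30 and MRPS36), members with 1 library standing apart, and up to 4 called genes of each related list. MRPL3, MRPL19, MRPS23, MRPS25, MRPL4 and METTL15 were added after their values were seen.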

Additional observations from a re-analysis of the deposited data

Results flagged for a closer look

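In each group of 4 libraries, the highest or lowest CPM of each member was set against Dixon's critical value for 4 samples. Of the 156 groups tested, 19 held a library that stood apart, where chance flags about 1 in 20 independent groups. The check was run on the members only, so no share over all tested genes stands beside that count. Whether the members differ from other genes in it was not tested. The 19 fell on 17 members, and 9 of the 19 were rFGF4 library 4.

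In rFGF4 library 4, MRPL11 stood apart at 105 CPM (the other rFGF4 libraries at 52.9 to 58.3), MRPL12 at 156 CPM (others 110 to 116) and MRPL14 at 73.8 CPM (others 57.9 to 58.6). The same library was high for MRPL36 at 71.6 CPM (others 57.6 to 59.8), MRPL41 at 90.7 CPM (others 60.9 to 64.5) and MRPL44 at 62.5 CPM (others 53.0 to 54.5). It was also high for MRPL51 at 161 CPM (others 127 to 132) and MRPS21 at 103 CPM (others 87.0 to 87.7), and it was low for MRPL1 at 25.9 CPM (others up to 33.6). Library 3 of the rFGF4 group was low for MRPL42 at 50.2 CPM (others 63.8 to 66.1).

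In PBS library 4, MRPL51 was high at 185 CPM (the other PBS libraries at 143 to 146), MRPL54 at 33.3 CPM (others 26.3 to 26.6) and MRPS36 at 32.1 CPM (others 24.5 to 24.8). Library 1 of the PBS group was low for MRPL30 at 31.0 CPM (others 99.5 to 103), MRPL50 at 77.4 CPM (others 81.2 to 81.4) and MRPL9 at 41.2 CPM (others 46.0 to 47.0). Library 2 was high for MRPL10 at 69.0 CPM (others 22.6 to 25.5) and MRPL42 at 66.3 CPM (others 41.6 to 43.6), and library 3 for MRPL38 at 62.2 CPM (others 42.6 to 45.9).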

How the results depend on the processing

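Of 18 alternative fits, MRPL32 and MRPL36 passed in 17, MRPS17 in 11 and MRPS34 in 5. With DESeq2, 7 of 78 members and 1828 genes passed, against 4 and 1157 with edgeR, the added members being MRPL50, MRPS23 and MRPS30. All 7 were higher, beside 8.51% of all tested genes called higher in that fit. With no filter on low values, 2 of 78 members passed, both higher, beside 1.52% of the 29674 genes then tested. Leaving out each library in turn gave 2 to 4 members, 601 to 1166 genes and a member median of 0.02 to 0.13. In these fits 2.83% to 5.39% of all tested genes were called higher. The lowest count of genes came without PBS library 2, where MRPL10 and MRPL42 passed and none of the 4 called members did. The count of members was also 2 without rFGF4 library 1 and without PBS library 1, where MRPL32 and MRPL36 passed. Without PBS library 3 MRPL38 passed, and without rFGF4 library 2 MRPL4 did.

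Same-numbered libraries had deviations correlated at 0.124, 0.0609, -0.0211 and 0.266. Not every pair exceeded 0.1 and the labels name no shared batch, so the numbers were not taken to pair the libraries, although the pairs numbered 4 and 1 had the highest correlations of the 16. Library 2 of rFGF4 correlated best with PBS library 3, and rFGF4 library 3 with PBS library 1. With the replicate block, 3 members and 1013 genes passed, with 4.86% of all tested genes called higher and a member median of 0.10. The calls for MRPS34 (adjusted p = 0.0560), RBFA (0.0694) and TFAM (0.0564, edgeR) were lost.

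The sign of some members that did not pass turned, and the cause was not tested. MRPS18B stood at -0.018 with limma on log2(FPKM + 1), at -0.019 on log2(FPKM + 0.1), at -0.024 without both libraries numbered 4 and at -0.021 with the length trend removed. Without both libraries numbered 4, MRPL53 stood at -0.060 and MRPL11 at -0.15. With each library left out in turn, values ran from -0.047 to 0.038 for MRPS18B, -0.13 to 0.35 for MRPL53, -0.17 to 0.23 for MRPL11, -0.030 to 0.071 for MRPS18C, -0.013 to 0.20 for MRPL41, -0.12 to 0.078 for MRPL54, -0.012 to 0.090 for MRPS21, -0.028 to 0.32 for MRPL3 and -1.11 to 0.0092 for MRPL49. At 4 libraries a group, differences near the median SE of 0.10 were not detectable for a single member.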
